A study of Mus musculus with 14 samples.

Results

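The collagen genes of mouse hind limb skeletal muscle are described here. They were taken as all rows of the deposited gene tables whose symbol has the form of a collagen chain name, Col, a type number, the letter a and a chain number (Col1a1, Col4a2), and 44 of the 49585 genes met this rule. They comprise 11 fibrillar, 6 basement membrane, 6 type VI, 9 fibril-associated, 2 multiplexin, 4 transmembrane and 6 other chains. RNA was measured by RNA-seq in 12 libraries of 4 groups with 3 libraries each: uninjured muscle of wild-type (WT) mice, uninjured muscle of mice lacking Myf6 (KO), injured WT muscle and injured KO muscle. Myf6, also called MRF4, is a muscle transcription factor of the basic helix-loop-helix class. The knockout allele and the cells in which Myf6 was removed, the strain, sex and age of the mice, what the injury was and when the muscle was taken after it are not given in the sources used here. The labels give each library a number and the letter L (uninjured) or R (injured), and the numbers are read here as animals, so that both legs of 3 WT and 3 KO animals were used and litter or batch cannot be told apart from genotype. As the labels do not say outright that the libraries come from separate animals, p-values measure the spread between these libraries.

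Collagens are secreted proteins in which chains wind into a triple helix. Fibrillar collagens (types I, III and V among others) assemble into the fibrils that bear load in the connective tissue around muscle fibres and in tendon, type IV collagen forms the sheet-like network of the basement membrane that wraps each muscle fibre and capillary, and type VI collagen forms beaded filaments that connect both and is mutated in inherited myopathies. Most collagen RNA in muscle is made by fibroblasts and their progenitors and by cells of vessels, nerves and tendon, so in whole tissue fewer cells of a type and less RNA per cell cannot be told apart.

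Values are RPM as deposited, that is reads assigned to a gene after scaling each library to the same total over all genes. The libraries held 1880087 to 49392468 reads, and 3 reads, taken as the floor of detection, were worth 0.0607 to 1.60 RPM. The smallest library, uninjured WT replicate 2, sets the upper end of both limits. Myf6 itself was at 25.0 to 121 RPM in the 6 WT libraries and 1.86 to 3.46 in the 6 KO libraries, so no library went against its genotype label. Uninjured KO replicate 2 had the fewest genes above 0 of all 12 libraries, 14065 at 12704445 reads. The smallest library had 14338. Injured KO replicate 2 stood apart in other measures. Its nuclear RNA Malat1 was at 288 RPM, inside the 213 to 494 of the WT libraries, against 73.4 and 80.4 in the other injured KO libraries, its 8 Schwann cell markers summed to 1850 RPM against 161 to 960 in the other 11 libraries, and its 8 endothelial markers to 891 against 252 to 475. Mitochondrial genes took 23.2% of its reads, against 4.30% and 4.95% in the other injured KO libraries, 8.35% to 14.8% in injured WT, 13.8% to 22.3% in uninjured WT and 3.63% to 15.3% in uninjured KO libraries. Malat1 was at 81.1 to 106.5 RPM in uninjured KO libraries, and 4 of the 6 KO libraries were below all 6 WT libraries in both measures. Their part in the collagen values was not tested. Estimates for injured KO against WT muscle are given with replicate 2 and, for the genes and lists described, without it. Of the 34 collagen genes tested in the fits of all 12 libraries, replicate 2 was the highest of all 12 for 15, against 19.3% of all genes tested. It was the highest of the 3 injured KO libraries for 30 of 34, for which the share over all genes was not counted.

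The 10 collagen genes with the highest mean RPM belonged to types I, III, IV, V, VI and VII. Col3a1, the chain of type III collagen, averaged 316 RPM over the 12 libraries, Col1a2 and Col1a1, the chains of type I, 253 and 149, and Col4a1 and Col4a2, the main chains of the basement membrane network, 173 and 128. RPM is not scaled to gene length, so the order of these levels is not an order of transcript number. At the other end, 10 of the 44 genes did not reach 1 RPM in 3 libraries and were not tested in any comparison, with means of 0.0204 to 0.742 RPM. They were Col2a1 and Col10a1, known from cartilage, Col9a2 and Col9a3, which join Col9a1 in type IX, Col13a1, a transmembrane collagen of the neuromuscular junction, Col17a1 of hemidesmosomes, and Col4a6, Col6a4, Col19a1 and Col25a1. Of the remaining 34, 31 were tested in uninjured and 33 in injured KO against WT muscle.

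**Figure D1:**
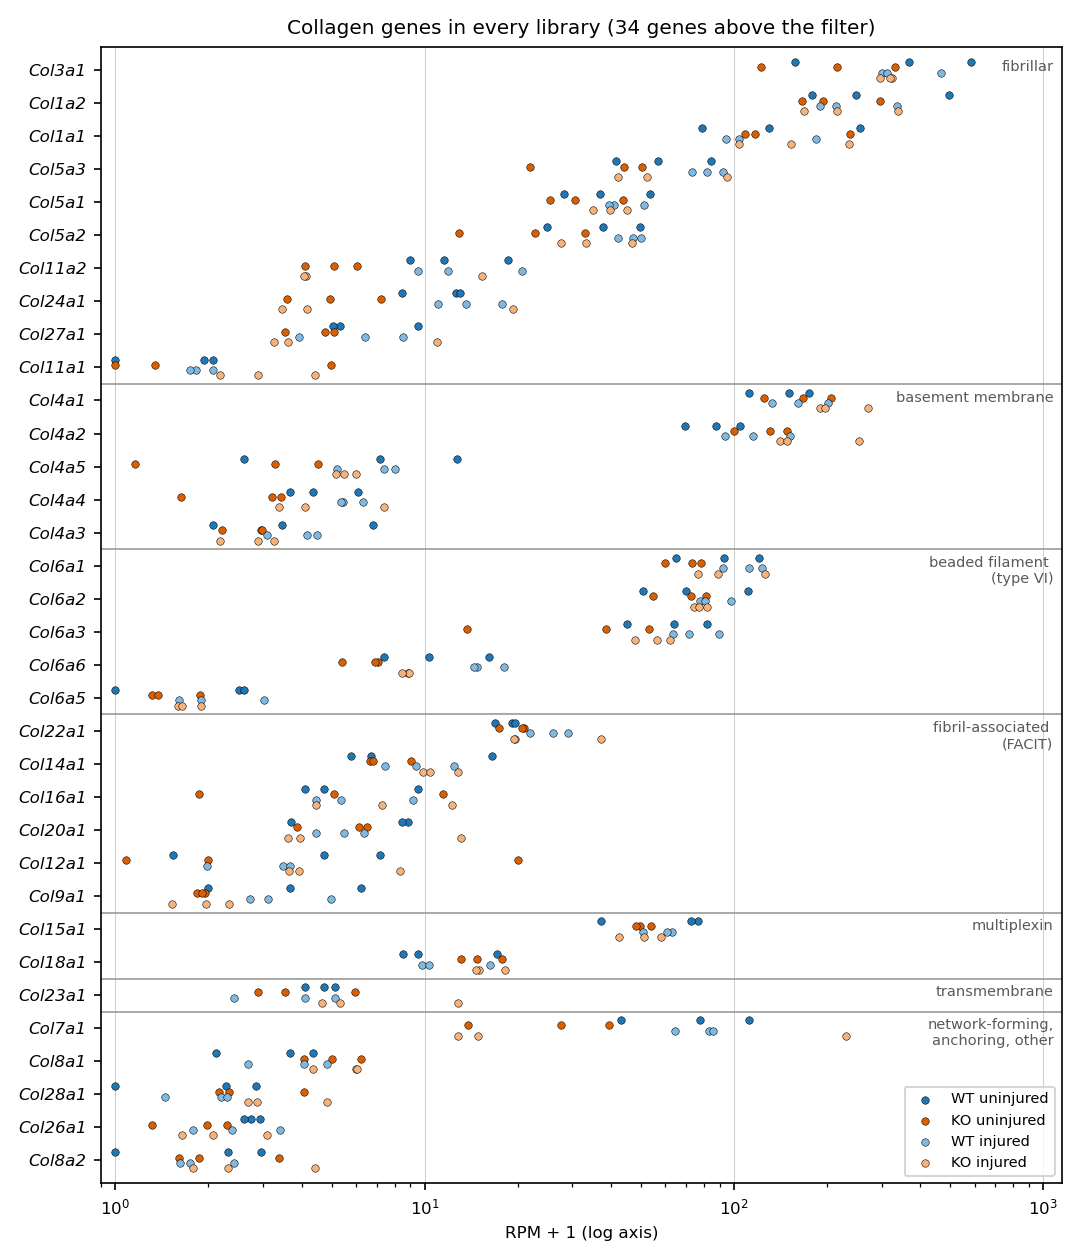
RPM + 1 (log axis) of the 34 collagen genes that passed the filter on low values, grouped by class, with 1 point for each of the 12 libraries. The groups overlap for most genes, while the KO points of Col6a6 lie to the left of the WT points of the same injury state, and 1 injured KO library stands to the right for Col7a1.

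In uninjured muscle, none of the 31 collagen genes tested differed between KO and WT past an adjusted p of 0.05 (limma on log2(RPM + 1), Benjamini-Hochberg adjustment over all genes), against 0.281% of all genes tested. At an unadjusted p under 0.05 there were 3, all lower in KO (Col7a1, Col11a2 and Col24a1), against 14.2% of all genes in either direction. No collagen gene passed on reads recovered from the RPM values either, where edgeR called 0.441% and DESeq2 5.32% of all genes, nor in the authors' deposited table, where the lowest q-value of a collagen gene was 0.311 (Col11a2) and 0.668% of all genes were under 0.05. Estimates were higher in KO for 8 of 31 collagen genes, against 4584 of all 12460 genes. The median change of the collagen genes was -0.28 on the log2 scale beside -0.18 for all genes. With TMM scaling the median of all genes moved to -0.02 and that of the collagen genes to -0.15. Without uninjured KO replicate 2 the median of all genes was 0.003 and that of the collagen genes -0.25. All 3 KO libraries lay below all 3 WT libraries for 6 of 31 (Col7a1, Col11a2, Col24a1, Col4a4, Col6a6 and Col26a1), against 15.5% of all genes, and above them for none, against 6.2%.

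In injured muscle, none of the 33 genes tested passed the same test, against 0.269% of all genes. At an unadjusted p under 0.05 there were again 3, Col6a6 and Col9a1 lower and Col28a1 higher in KO, against 10.3% of all genes. With edgeR the count was 0, against 0.261% of all genes, and with DESeq2 it was 1, Col6a6, against 3.38% of all genes. DESeq2 gave no p-value for Col7a1. The median change was -0.13 beside 0.01 (log2) for all 12625 genes, and 13 of 33 estimates were higher in KO, against 6560 of all 12625. The KO libraries lay below the WT libraries for Col6a3, Col6a6 and Col9a1, against 8.63% of all genes, and above them for Col11a1 and Col28a1, against 8.29%.

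Without injured KO replicate 2, which leaves 2 KO libraries against 3, 6 of 32 collagen genes passed, all lower in KO: Col7a1, Col24a1, Col11a2, Col6a6, Col5a3 and Col5a2. In that fit 19.0% of all genes passed, which is close to the share of collagen genes. The KO libraries lay below the WT libraries for 14 of 32, against 26.2% of all genes, and above for 2, against 30.4%, and the median change was -0.32 beside 0.03 for all genes. Leaving out any of the other 5 injured libraries gave 0 collagen genes and 0 genes in all. So the limma calls of collagen genes in injured muscle rest on whether 1 library is included, while DESeq2 called Col6a6 with all libraries.

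**Figure D2:**
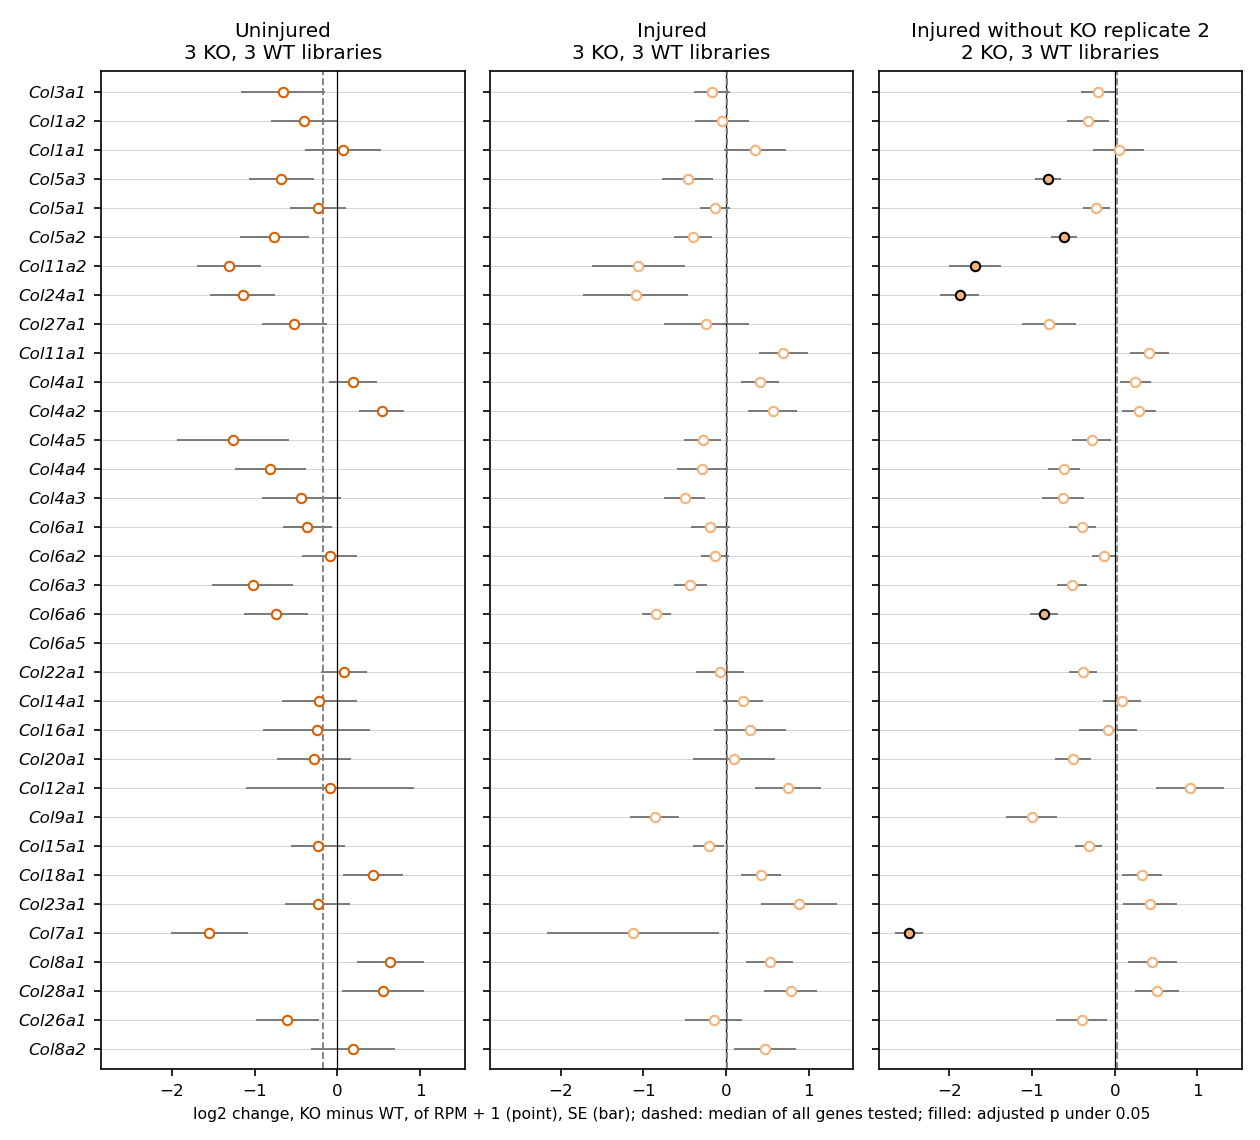
Log2 change of RPM + 1, KO minus WT (points) with SE (bars), for each collagen gene tested in uninjured muscle, in injured muscle and in injured muscle without KO replicate 2. The dashed lines give the median of all genes tested, and filled points mark an adjusted p under 0.05, which 0, 0 and 6 genes reached.

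The fibrillar collagens had lower estimates in uninjured KO muscle for 8 of 9 genes tested, with a median change of -0.66 (log2), but none passed the test. Col1a1 alone was estimated higher, and turned to the lower side when reads were scaled outside mitochondrial genes. The median of all genes was -0.18. In injured muscle 8 of 10 were estimated lower, with a median of -0.20 beside 0.01 for all genes. Without KO replicate 2 the median was -0.47 beside 0.03. In that fit 4 of 10 passed the test, all lower (Col5a3, Col11a2, Col24a1 and Col5a2), where 19.0% of all genes passed. Summed over the 11 fibrillar genes, RPM was 994 ± 513 (SD, n = 3) in uninjured WT, 699 ± 268 in uninjured KO, 933 ± 244 in injured WT and 874 ± 227 in injured KO libraries. The genotypes overlapped in both states. Markers of fibroblasts and their progenitors, all 10 above 0 in every library, summed to 1388 to 2511 RPM in uninjured WT and 1084 to 1713 in uninjured KO libraries. In injured WT and KO libraries they summed to 2078 to 2367 and 1784 to 2097. Gsn made up most of each sum. In uninjured muscle Pdgfra, Dpt, Cd34 and Ly6a were lower in every KO than in every WT library, and the other listed genes overlapped. In injured muscle Pdgfra, Clec3b and Gsn were lower without overlap, and the others overlapped. Muscle fibre markers, with all 8 above 0, summed to 111400 to 122400 RPM in uninjured WT and 160900 to 170000 in uninjured KO libraries. There Ckm and Tnnt3 were higher in every KO than in every WT library. The other listed genes overlapped, among them Myh4, the largest part of each sum. In injured muscle the sums overlapped, at 116800 to 147100 RPM in WT and 110300 to 154200 in KO libraries. Tendon markers summed to 74.5 to 203 RPM in uninjured WT and 104 to 132 in uninjured KO libraries. In injured WT and KO libraries they summed to 55.1 to 154 and 79.4 to 195. Their part in the collagen values was not tested.

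Col3a1 was at 583, 156 and 368 RPM in uninjured WT and 214, 121 and 332 in uninjured KO libraries, and at 467.5, 299.5 and 311 in injured WT and 295, 323 and 319 in injured KO libraries. The 3 uninjured WT libraries spanned a wider range than all the others together, and the genotypes overlapped in both states. The change was -0.66 (SE 0.51, adjusted p = 0.605) in uninjured and -0.17 (SE 0.22, adjusted p = 0.831) in injured muscle, and -0.20 (adjusted p = 0.533) in the latter without KO replicate 2.

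Col1a2 was at 496, 178 and 246 RPM in uninjured WT and 194, 165 and 295 in uninjured KO libraries, and at 335, 189 and 212 in injured WT and 167.5, 338 and 214 in injured KO libraries. Its partner chain Col1a1 was at 255, 77.7 and 128 RPM in uninjured WT, 108, 116 and 236 in uninjured KO, 183, 103 and 93.3 in injured WT and 103, 235 and 152 in injured KO libraries. Both type I chains overlapped between genotypes in both states, with uninjured WT replicate 1 the highest library of all for each. The uninjured changes were -0.40 (SE 0.40, adjusted p = 0.697) for Col1a2 and 0.07 (SE 0.46, adjusted p = 0.963) for Col1a1. The injured ones were -0.05 (SE 0.33, adjusted p = 0.977) and 0.35 (SE 0.37, adjusted p = 0.787), and without KO replicate 2 they were -0.33 (adjusted p = 0.387) and 0.05 (adjusted p = 0.922).

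Type V collagen is built into type I fibrils and controls how they start and how thick they grow. Its chain Col5a3 was at 83.2, 55.85 and 40.65 RPM in uninjured WT and 49.45, 20.9 and 43.2 in uninjured KO libraries, and at 90.85, 72.4 and 80.75 in injured WT and 51.3, 94.2 and 41.1 in injured KO libraries. The uninjured groups overlapped, and in injured muscle KO replicates 1 and 3 were below every WT library while replicate 2 was above them all. The change was -0.68 (SE 0.40, adjusted p = 0.481) in uninjured and -0.46 (SE 0.31, adjusted p = 0.649) in injured muscle, and -0.81 (SE 0.16, adjusted p = 0.0197) without injured KO replicate 2. Col5a2, given here because it passed that last fit, and so chosen after its values were seen, was at 48.9, 41.3 and 46.0 RPM in injured WT and 26.5, 45.8 and 32.3 in injured KO libraries. Again replicates 1 and 3 were the low ones, and the change was -0.40 (SE 0.23, adjusted p = 0.587) with and -0.61 (SE 0.15, adjusted p = 0.0349) without replicate 2.

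Col11a2 encodes a chain of type XI collagen, a relative of type V that is best known from cartilage fibrils, and Col24a1 a fibrillar collagen known from bone. Col11a2 was at 17.6, 7.98 and 10.6 RPM in uninjured WT and 5.02, 4.09 and 3.11 in uninjured KO libraries, so every KO library was below every WT library. In injured muscle it was at 19.6, 10.9 and 8.5 in WT and 3.13, 14.3 and 3.08 in KO libraries, where replicate 2 was inside the WT range and the other two were below it. Its change was -1.31 (SE 0.39, adjusted p = 0.190) in uninjured and -1.06 (SE 0.56, adjusted p = 0.571) in injured muscle. Without injured KO replicate 2 the injured change was -1.69 (SE 0.32, adjusted p = 0.0165).

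Col24a1 was at 11.65, 7.45 and 11.99 RPM in uninjured WT and 6.24, 3.94 and 2.595 in uninjured KO libraries, and at 10.05, 12.65 and 16.8 in injured WT and 2.46, 18.3 and 3.16 in injured KO libraries. The pattern over libraries was that of Col11a2: low in all uninjured KO libraries and in injured KO replicates 1 and 3, and high in injured KO replicate 2, which was the highest of all 12. The change was -1.14 (SE 0.39, adjusted p = 0.232) in uninjured and -1.09 (SE 0.63, adjusted p = 0.597) in injured muscle, and -1.87 (SE 0.24, adjusted p = 0.00668) in injured muscle without that library. Cartilage and bone markers, of which 2 of 8 were above 0 in every library, summed to 3.44 to 5.77 RPM in uninjured WT, 0.708 to 16.7 in uninjured KO, 2.33 to 4.71 in injured WT and 3.08 to 5.30 in injured KO libraries. Acan, the defining gene of cartilage, was at 0 to 0.795 RPM, and the part of such cells was not tested. Col11a1, the partner chain of Col11a2 in type XI, had a higher estimate in KO at a low level: it was at 0.825, 0.749 and 1.07 RPM in injured WT and 1.18, 3.43 and 1.88 in injured KO libraries. The 2 groups did not overlap, and the change was 0.69 (SE 0.30, adjusted p = 0.489), or 0.42 (adjusted p = 0.237) without replicate 2.

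Col7a1 is the chain of type VII collagen, which forms the anchoring fibrils that tie the skin's basement membrane to the dermis. It was at 76.9, 111 and 42.0 RPM in uninjured WT and 26.5, 38.4 and 12.9 in uninjured KO libraries. It was at 81.9, 63.6 and 84.6 RPM in injured WT and 11.8, 229 and 13.8 in injured KO libraries. Of the 6 KO libraries, 5 were below all 6 WT libraries, and injured KO replicate 2 was above them all. In uninjured muscle the change was -1.55 (SE 0.46, adjusted p = 0.196). In injured muscle it was -1.13 (SE 1.04, adjusted p = 0.751) with replicate 2 and -2.48 (SE 0.17, adjusted p = 0.00138) without it. The mean RPM of the injured KO group was 84.8 ± 125 and that of the injured WT group 76.7 ± 11.4 (SD, n = 3), with replicate 2 the 1 KO library above either mean. Of 6 keratinocyte markers 2 were above 0 in every library, and their sum was 10.8 to 18.1 RPM in uninjured WT, 6.05 to 9.98 in uninjured KO, 12.3 to 14.2 in injured WT and 6.81 to 8.35 in injured KO libraries. Krt5 was at 0 in all 12 libraries, and Krt14 and Krt1, the other defining keratins, were each at 0 in all but 1. Schwann cell markers, 8 of 8 above 0 in every library, were highest in replicate 2, as was Col7a1, and overlapped between the uninjured groups, where they summed to 543 to 960 RPM in WT and 255 to 673 in KO libraries. Their part in the Col7a1 values was not tested.

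**Figure D3:**
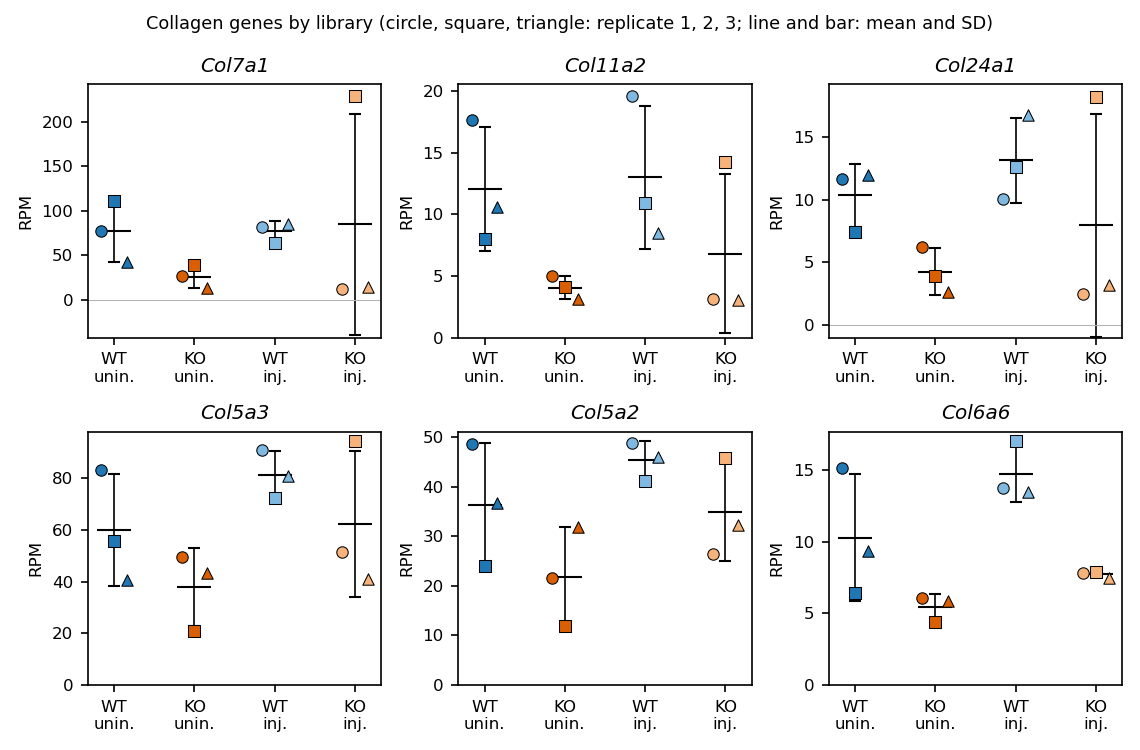
RPM of the 6 collagen genes that passed without injured KO replicate 2, by group, with 1 symbol for each replicate (circle 1, square 2, triangle 3) and the mean and SD of 3 libraries. In the injured KO group the square stands well above the circle and triangle for Col7a1, Col11a2, Col24a1, Col5a3 and Col5a2, while for Col6a6 the 3 symbols lie between 7.47 and 7.91 RPM.

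The start regions of Col7a1, Col11a2 and Col24a1, the 3 genes with the smallest p-values in uninjured muscle, are shown because Myf6 binds E-boxes, and an E-box is spelled CANNTG, which reads the same on both strands. Each run covers 250 bases before to 50 bases after the RefSeq start (assembly GRCm38.p6, 5′ to 3′ on the + strand), with every CANNTG in capitals. The regions are chr9:108953336-108953635 for Col7a1, chr17:34038888-34039187 for Col11a2 and chr3:145292222-145292521 for Col24a1.
Col7a1: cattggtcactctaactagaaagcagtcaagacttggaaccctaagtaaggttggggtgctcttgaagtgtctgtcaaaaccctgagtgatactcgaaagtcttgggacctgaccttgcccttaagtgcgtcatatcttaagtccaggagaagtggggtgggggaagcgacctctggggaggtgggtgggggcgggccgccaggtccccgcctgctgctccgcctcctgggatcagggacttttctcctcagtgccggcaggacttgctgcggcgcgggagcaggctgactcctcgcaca
Col11a2: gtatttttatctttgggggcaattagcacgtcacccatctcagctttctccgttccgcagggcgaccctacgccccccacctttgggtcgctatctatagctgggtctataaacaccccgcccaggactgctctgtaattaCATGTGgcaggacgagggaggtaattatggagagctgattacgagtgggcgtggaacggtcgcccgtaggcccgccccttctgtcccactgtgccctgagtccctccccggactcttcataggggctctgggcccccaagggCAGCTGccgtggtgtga
Col24a1: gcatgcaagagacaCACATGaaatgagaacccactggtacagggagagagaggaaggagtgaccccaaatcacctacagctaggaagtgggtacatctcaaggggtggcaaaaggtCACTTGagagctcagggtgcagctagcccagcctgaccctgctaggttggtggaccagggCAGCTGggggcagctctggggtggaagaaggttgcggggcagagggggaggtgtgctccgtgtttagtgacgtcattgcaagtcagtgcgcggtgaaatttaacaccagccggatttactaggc
The Col7a1 region held no CANNTG, that of Col11a2 held 2 and that of Col24a1 held 3, and in the latter pair 1 each was the variant CAGCTG. Over the 38 start regions matched to 35 of the 44 collagen genes, 20 (52.6%) held at least 1 CANNTG, against 72.3% of all 32851 regions of the same length, and 7 (18.4%) held CAGCTG, which is also counted as CANNTG, against 16.3%. A match describes letters and is not a binding site.

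The basement membrane collagens split by chain. The main chains Col4a1 and Col4a2 had higher estimates in KO muscle in both states, and the minor chains Col4a3, Col4a4 and Col4a5, which form a separate network known from kidney and from the synaptic basement membrane of muscle, had lower ones. None passed the test, with or without injured KO replicate 2. Summed over the 6 genes, RPM was 244 ± 53.8 (SD, n = 3) in uninjured WT, 297 ± 67.5 in uninjured KO, 298 ± 62.1 in injured WT and 409 ± 110 in injured KO libraries. Markers of endothelium, another cell type that makes type IV collagen, were all above 0. They summed to 377 to 446 RPM in uninjured WT and 362 to 431 in uninjured KO libraries, so those groups overlapped. In injured muscle they summed to 252.5 to 475 RPM in WT and 357 to 891 in KO libraries. Those groups overlapped too, with KO replicate 2 the highest. Their part in the type IV values was not tested.

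Col4a1 was at 173, 111 and 149.8 RPM in uninjured WT, 166, 124.5 and 205 in uninjured KO, 201, 132 and 159.9 in injured WT and 188.5, 269 and 196 in injured KO libraries. Col4a2 was at 104, 68.6 and 86.2 RPM in uninjured WT, 129.5, 99.1 and 147 in uninjured KO, 151, 92.6 and 114 in injured WT and 139.9, 252 and 148 in injured KO libraries. For Col4a2 only the lowest uninjured KO library lay inside the WT range, and both genes overlapped between genotypes in both states. The log2 estimates for Col4a2 were 0.54 (SE 0.27, adjusted p = 0.414) in uninjured and 0.56 (SE 0.29, adjusted p = 0.562) in injured muscle, and 0.30 (adjusted p = 0.334) in the latter without KO replicate 2. For Col4a1 the estimates were 0.19 (SE 0.29, adjusted p = 0.820) and 0.41 (SE 0.23, adjusted p = 0.587), and 0.25 (adjusted p = 0.376) in injured muscle without that library.

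Col4a1 and Col4a2 are transcribed in opposite directions from starts that lie 21 bp apart, so their 300-base start regions overlap by 78 bp. The overlap lies around the 2 starts, and the bases further upstream of each gene are not shared. The regions are printed because they overlap. Col4a1 is read on the - strand of chr8:11312777-11313076 and Col4a2 on the + strand of chr8:11312555-11312854 (GRCm38.p6).
Col4a1: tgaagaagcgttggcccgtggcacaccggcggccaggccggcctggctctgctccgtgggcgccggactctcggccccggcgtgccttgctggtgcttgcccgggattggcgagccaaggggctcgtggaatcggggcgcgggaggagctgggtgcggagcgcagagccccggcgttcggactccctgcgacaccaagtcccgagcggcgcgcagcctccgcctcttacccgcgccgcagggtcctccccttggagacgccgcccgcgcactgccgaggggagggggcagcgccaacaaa
Col4a2: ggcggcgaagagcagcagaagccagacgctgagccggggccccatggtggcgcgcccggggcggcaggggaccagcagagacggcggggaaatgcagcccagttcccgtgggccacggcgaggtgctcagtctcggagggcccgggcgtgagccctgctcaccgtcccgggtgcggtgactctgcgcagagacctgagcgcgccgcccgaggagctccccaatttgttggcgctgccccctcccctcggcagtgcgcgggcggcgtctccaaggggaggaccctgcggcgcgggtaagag
Neither region held a CANNTG, and their GC content was 74.0% and 73.7%, against 56.3% to 59.0% in the 3 regions above. Whether the authors' counting used strand is not stated, so reads near the shared start cannot be assigned with certainty, and the same holds for Col4a3 and Col4a4, which form another such pair.

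Col4a4 was at 3.35, 2.66 and 5.07 RPM in uninjured WT and 2.21, 0.63 and 2.43 in uninjured KO libraries, and at 4.43, 4.38 and 5.32 in injured WT and 2.38, 6.36 and 3.1 in injured KO libraries. The uninjured groups did not overlap, and in injured muscle KO replicates 1 and 3 were below and replicate 2 above all WT libraries. Its changes were -0.81 (SE 0.43, adjusted p = 0.428) and -0.28 (SE 0.31, adjusted p = 0.792), the latter -0.61 (SE 0.20, adjusted p = 0.0677) without replicate 2. Col4a5 was at 6.15, 1.6 and 11.7 RPM in uninjured WT, 2.28, 0.157 and 3.53 in uninjured KO, 4.2, 7.0 and 6.39 in injured WT and 5.005, 4.48 and 4.17 in injured KO libraries. The uninjured libraries spread more widely than the injured ones, and the genotypes overlapped in both states. The changes were -1.26 (SE 0.68, adjusted p = 0.437) and -0.28 (SE 0.22, adjusted p = 0.702), the latter -0.28 (adjusted p = 0.426) without replicate 2. Col4a3 was at 2.45, 1.06 and 5.83 RPM in uninjured WT, 1.22, 1.97 and 1.99 in uninjured KO, 2.1, 3.48 and 3.18 in injured WT and 1.18, 2.27 and 1.88 in injured KO libraries. It overlapped in both states too, with changes of -0.44 (SE 0.48, adjusted p = 0.731) and -0.50 (SE 0.25, adjusted p = 0.554), the latter -0.63 (SE 0.25, adjusted p = 0.1155) without replicate 2.

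All 4 type VI genes tested in both states had lower estimates in KO muscle in both, with medians of -0.55 and -0.31 (log2), except that Col6a2 turned to the higher side in uninjured muscle with edgeR and with upper quartile or TMM scaling. None passed the test with all libraries. Without injured KO replicate 2 the injured median was -0.45, and Col6a6 was the 1 of 4 that passed, against 19.0% of all genes. Col6a1 and Col6a2 join Col6a3 in the main type VI filament, and Col6a6 is a chain similar to Col6a3. Summed RPM was 242 ± 81.2 (SD, n = 3) in uninjured WT, 178 ± 43.8 in uninjured KO, 283 ± 37.0 in injured WT and 236 ± 33.5 in injured KO libraries.

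Col6a6 was at 15.1, 6.38 and 9.32 RPM in uninjured WT and 6.09, 4.41 and 5.89 in uninjured KO libraries. In injured muscle it was at 13.7, 17.0 and 13.5 RPM in WT and 7.82, 7.91 and 7.47 in KO libraries. Each KO library was lower than any WT library of the same state, and the 3 injured KO libraries, replicate 2 included, lay close together. The change was -0.74 (SE 0.39, adjusted p = 0.420) in uninjured and -0.84 (SE 0.17, adjusted p = 0.182) in injured muscle. In the latter it was -0.94 (adjusted p = 0.00184) with DESeq2 and -0.86 (SE 0.17, adjusted p = 0.0192) with limma without replicate 2. The authors' deposited table gave Col6a6 a change of -0.92 with a q-value of 0.0646 in injured muscle, the lowest of the collagen genes, where 0.454% of all genes were under 0.05. Over its other alternatives in injured muscle the adjusted p ran up to 0.795.

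Col6a3 was at 80.8, 44.15 and 62.85 RPM in uninjured WT, 37.5, 12.75 and 52.2 in uninjured KO, 88.5, 62.7 and 70.8 in injured WT and 46.9, 60.9 and 55.3 in injured KO libraries. The uninjured groups overlapped, with 1 KO library far below the rest, and the injured groups did not. The changes were -1.02 (SE 0.49, adjusted p = 0.382) and -0.43 (SE 0.20, adjusted p = 0.523), the latter -0.52 (SE 0.18, adjusted p = 0.07997) without replicate 2. Col6a1 was at 119.9, 63.8 and 92.2 RPM in uninjured WT, 72.3, 59.0 and 77.15 in uninjured KO, 122, 91.5 and 111 in injured WT and 75.8, 125 and 87.75 in injured KO libraries. Col6a2 was at 110.2, 50 and 68.9 RPM in uninjured WT, 71.8, 53.9 and 80.5 in uninjured KO, 97.15, 76.9 and 79.6 in injured WT and 73.2, 76.2 and 80.6 in injured KO libraries. Both overlapped between genotypes in both states, with changes of -0.36 (SE 0.30, adjusted p = 0.624) and -0.19 (SE 0.23, adjusted p = 0.823) for Col6a1 and of -0.09 (SE 0.34, adjusted p = 0.931) and -0.13 (SE 0.16, adjusted p = 0.825) for Col6a2. The injured changes without KO replicate 2 were -0.39 (adjusted p = 0.128) for Col6a1 and -0.13 (adjusted p = 0.568) for Col6a2.

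**Figure D4:**
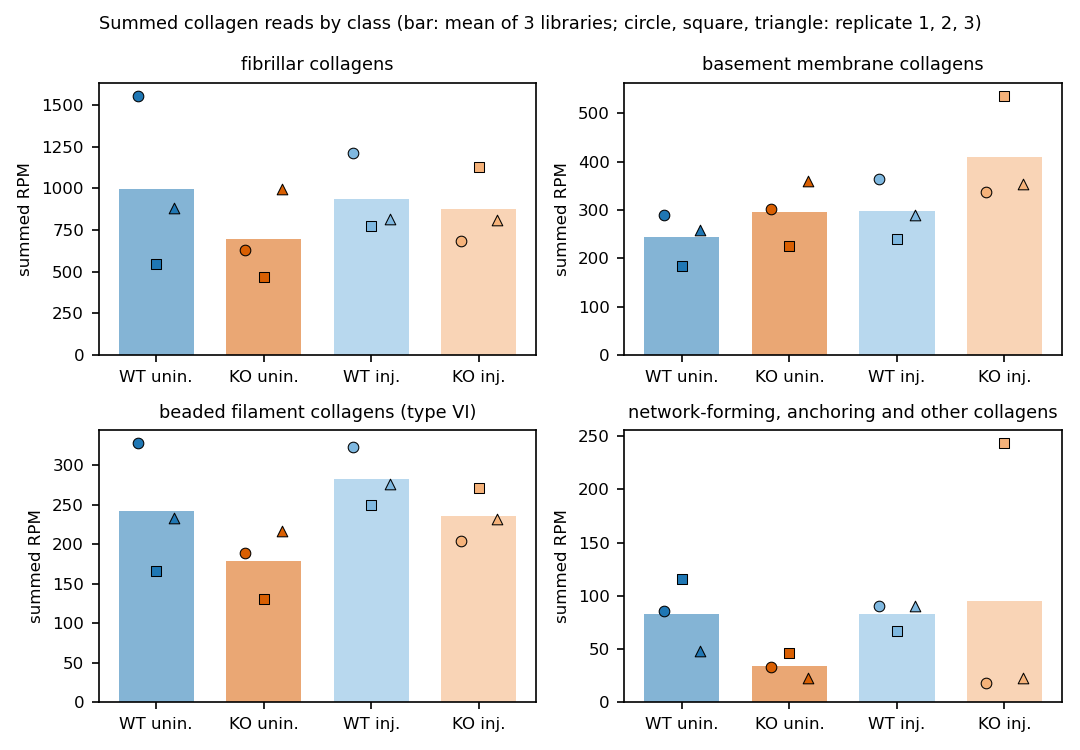
Summed RPM of the fibrillar, basement membrane, type VI and network-forming, anchoring and other collagens by group, with bars for the mean of 3 libraries and 1 symbol for each replicate. Genotypes overlap in both states for the first 3 classes, and the last class, in which Col7a1 has most of the reads, reaches 243 RPM in injured KO replicate 2 against 18.5 and 23.0 in the other two.

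Among the fibril-associated collagens, which sit on the surface of other fibrils, 5 were tested in uninjured muscle with changes of -0.28 to 0.08 (log2), and 6 in injured muscle with changes of -0.86 to 0.75. The uninjured estimate for Col12a1, a chain found in tendon and muscle connective tissue, depended on the method and on the libraries used. It was -0.09 with limma (SE 1.01), -0.74 without WT replicate 2, 0.80 with edgeR and 0.91 with DESeq2, and none of these passed. Col12a1 was at 3.73, 0.532 and 6.19 RPM in uninjured WT and 0.989, 0.0787 and 19.1 in uninjured KO libraries. The means were 3.49 RPM in WT and 6.72 in KO libraries, with KO replicate 3 the only KO library above either mean. In injured muscle 4 of 6 estimates were above 0 (median 0.15) with and 2 of 6 (median -0.23) without KO replicate 2. The lowest was Col9a1, a chain of type IX, at 5.21, 2.66 and 0.988 RPM in uninjured WT and 0.837, 0.945 and 0.912 in uninjured KO libraries, and at 1.725, 3.97 and 2.105 in injured WT and 0.964, 1.33 and 0.526 in injured KO libraries. Each KO library was lower than any WT library of the same state, but the uninjured values did not pass the filter and were not tested. In injured muscle the change was -0.86 (SE 0.30, adjusted p = 0.407), and -1.01 (SE 0.30, adjusted p = 0.0575) without KO replicate 2. Col9a1 and Col6a6 were the 2 of 34 genes whose KO libraries were below the WT libraries in both states, against 3.09% of all genes, and none was above in both, against 2.09%. The multiplexins, basement membrane proteins with chains cut by many interruptions, had changes of -0.23 and 0.43 in uninjured and -0.21 and 0.43 in injured muscle for Col15a1 and Col18a1, and of -0.32 and 0.33 in injured muscle without KO replicate 2.

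Col23a1, a transmembrane collagen and the only one tested of its class, was at 4.12, 3.72 and 3.1 RPM in uninjured WT, 4.945, 1.89 and 2.525 in uninjured KO, 4.13, 1.42 and 3.1 in injured WT and 4.34, 11.8 and 3.66 in injured KO libraries. Replicate 2 was the highest again, and the groups overlapped. The changes were -0.24 (SE 0.39, adjusted p = 0.831) and 0.88 (SE 0.46, adjusted p = 0.559), the latter 0.43 (adjusted p = 0.370) without replicate 2. Col28a1, a collagen found around Schwann cells of peripheral nerve, was at 1.29, 0 and 1.845 RPM in uninjured WT and 1.33, 3.07 and 1.17 in uninjured KO libraries. In injured muscle it was at 1.2, 0.449 and 1.3 RPM in WT and 1.87, 3.82 and 1.68 in KO libraries. The injured groups did not overlap, and the 0 in uninjured WT replicate 2 allows a level of up to 1.60 RPM at its depth. Its changes were 0.55 (SE 0.49, adjusted p = 0.655) in uninjured and 0.78 (SE 0.32, adjusted p = 0.467) in injured muscle, or 0.51 (adjusted p = 0.207) without replicate 2. Schwann cell markers summed to 161 to 530 RPM in injured WT and 333 to 1850 in injured KO libraries, and their part in Col28a1 was not tested.

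None of the 34 collagen genes passed the test for injury in either genotype. The fits for injury and for the interaction treated both legs of an animal as independent. With the animal as a block, 0 of 34 passed as well. In WT muscle limma called 0 of 34 and, over all genes, 0.0%, with 0 of 34 and 1.29% of all genes at an unadjusted p under 0.05, and edgeR called 0 as well. The median change, injured minus uninjured, was 0.13 beside 0.09 for all genes. After injury 24 of 34 estimates were higher, against 8317 of all 13337. With TMM scaling 25 of 34 were higher, and with edgeR 16. The gene with the smallest p was Col6a6, at 0.55 (SE 0.30, adjusted p = 1.0), followed by Col22a1, a collagen of the junction between muscle and tendon, at 0.46 (SE 0.27, adjusted p = 1.0), and Col4a2 at 0.46 (SE 0.28, adjusted p = 1.0). Col22a1 was at 18.15, 18.6 and 15.9 RPM in uninjured WT and 20.9, 28.0 and 24.95 in injured WT libraries, and it alone of 34 lay above without overlap, against 7.48% of all genes. None lay below, against 2.54%.

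In KO muscle limma and edgeR again called 0 of 34, as they did over all genes (0.0%). At an unadjusted p under 0.05 limma gave 1, Col4a4, against 3.51% of all genes. Estimates were higher after injury for 33 of 34 genes, against 10784 of all 13337, with a median of 0.36 beside 0.29 for all genes. With TMM or upper quartile scaling 24 of 34 were higher, and the median of all genes moved to 0.05. Without injured KO replicate 2, 21 of 34 were higher, and the collagen median was 0.14 beside 0.27 for all genes. Without uninjured KO replicate 2, 30 of 34 were higher, and the collagen median was 0.23 beside 0.10 for all genes. With all libraries the estimate was 0.84 (SE 0.38, adjusted p = 0.728) for Col4a4, 0.86 (SE 0.41, adjusted p = 0.728) for Col6a3 and 0.72 (SE 0.35, adjusted p = 0.728) for Col5a2. All injured KO libraries were above all uninjured KO libraries for Col14a1, Col4a5 and Col6a6, against 6.12% of all genes, and below them for none, against 0.622%.

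The difference in the injury response between genotypes, tested as an interaction, passed for 0 of 34 genes and 0.0% of all genes with limma and with edgeR, and at an unadjusted p under 0.05 for 0 of 34 and 1.56%. The median interaction was 0.27 beside 0.20 for all genes, and -0.04 beside 0.18 without injured KO replicate 2. Without uninjured KO replicate 2 it was 0.06 beside 0.01. With all libraries, estimates were above 0 for 28 of 34, against 9083 of all 13337 genes, and for 20 of 34 with TMM scaling. Col23a1 had the smallest p, with 1.12 (SE 0.61, adjusted p = 1.0), then Col4a5 with 0.97 (SE 0.79) and Col6a3 with 0.59 (SE 0.58), at the same adjusted p.

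Genes that make, process and bind collagen were followed in 4 lists. With all libraries, limma called no gene of these lists in either state. Without injured KO replicate 2 it called 8 in injured muscle, named below after their values were seen, where 19.0% of all genes passed. Of the 20 genes tested in uninjured muscle that modify and fold chains in the endoplasmic reticulum, 10 had higher and 10 lower estimates (median 0.04). Those with the smallest p were Hsp90b1, a chaperone, at -0.69 (adjusted p = 0.251), and Colgalt2, which adds galactose to hydroxylysine, at -0.79 (adjusted p = 0.332). In injured muscle 10 of 19 were higher (median 0.04), among them Crtap, a part of the prolyl 3-hydroxylation complex, at 0.52 (adjusted p = 0.413), while Serpinh1, the collagen chaperone Hsp47, was at 139, 94.15 and 96.5 RPM in WT and 74.6, 72.7 and 72.9 in KO libraries, a change of -0.55 (adjusted p = 0.415). The Serpinh1 groups did not overlap. Without replicate 2, Serpinh1 was at -0.54 (adjusted p = 0.0822) and Crtap at 0.45 (adjusted p = 0.109), and 2 of 19 passed, both higher in KO. They were Tmem38b, an ion channel of the endoplasmic reticulum, at 1.09 (adjusted p = 0.0341), and Colgalt1, the relative of Colgalt2, at 1.04 (adjusted p = 0.0416). The median was -0.09.

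Of 10 genes that cleave procollagen or crosslink fibrils, 6 had lower estimates in uninjured (median -0.34) and 7 in injured muscle (median -0.10). Bmp1, the protease that removes the C-propeptide of fibrillar procollagens, was at 45.0, 26.1 and 25.4 RPM in uninjured WT and 21.1, 14.7 and 14.8 in uninjured KO libraries, and at 50.3, 34.3 and 46.8 in injured WT and 14.75, 62.4 and 16.1 in injured KO libraries. The uninjured groups did not overlap, and in injured muscle replicate 2 was above every WT library as it was for Col7a1 and Col5a3. Its changes were -0.86 (adjusted p = 0.284) and -0.78 (adjusted p = 0.652). Adamts14, which removes the N-propeptide, was at -0.99 (adjusted p = 0.341) in uninjured muscle, and Lox, the crosslinking lysyl oxidase, at 0.46 (adjusted p = 0.694) in injured muscle. With injured KO replicate 2 left out, Lox was at 0.34 (adjusted p = 0.536) and 2 of 10 passed, both lower in KO, with a median of -0.20. They were Bmp1, at -1.43 (SE 0.19, adjusted p = 0.00735), and Loxl3, a relative of Lox, at -0.99 (SE 0.19, adjusted p = 0.0168).

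Of 10 collagen receptors and uptake proteins, 6 had lower estimates in uninjured (median -0.10) and 5 in injured muscle (median -0.06). The receptor tyrosine kinase Ddr2, which binds fibrillar collagen, was at 42.4, 26.6 and 19.9 RPM in uninjured WT and 14.8, 5.98 and 13.75 in uninjured KO libraries. Its groups did not overlap, and the change was -1.31 (adjusted p = 0.214). Itga11, an integrin chain for type I collagen, was at -0.71 (adjusted p = 0.384). In injured muscle Antxr2, a receptor for type VI collagen, was at -0.36 (adjusted p = 0.540) and the uptake receptor Mrc2 at -0.32 (adjusted p = 0.622). Without KO replicate 2 these were at -0.26 (adjusted p = 0.227) and -0.46 (adjusted p = 0.0883), the median was -0.27 and 3 of 10 passed. Ddr2, at -0.87 (adjusted p = 0.0247), and Itga11, at -0.81 (adjusted p = 0.0313), were lower in KO, and Itgb1, the integrin chain that pairs with Itga11, was higher at 0.50 (adjusted p = 0.0410).

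Of 23 proteins that bind fibrils or basement membranes, 13 had lower estimates in uninjured (median -0.04) and 16 higher ones in injured muscle (median 0.09). Fbn1, the main protein of microfibrils, was at 84.35, 71.3 and 62.1 RPM in uninjured WT and 36.7, 37.9 and 42.0 in uninjured KO libraries, with no overlap and a change of -0.88 (adjusted p = 0.186). Tnxb, tenascin X, was at -0.87 (adjusted p = 0.236). In injured muscle the smallest p-values belonged to Tnc, tenascin C, which is known to appear in remodelling matrix, at 0.94 (adjusted p = 0.333), and to Postn, periostin, at 0.91 (adjusted p = 0.432). Without KO replicate 2 these were at 0.77 (adjusted p = 0.0784) and 1.04 (adjusted p = 0.0725), the median stayed at 0.09, and 1 of 23 passed, Tnxb, lower at -1.15 (SE 0.21, adjusted p = 0.0156).

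Binding of Myf6 near collagen genes was read from the peaks the authors called from 1 ChIP library, made with a Flag antibody from primary myotubes, against 1 control, so it has no replicate check and comes from cultured cells in place of whole muscle. Of the 35 collagen genes with a RefSeq start, 5 (14.3%) had a peak summit within 5 kb, against 7.61% of 27025 genes. As Col4a1 and Col4a2 share a peak, these are 4 peaks. The Col4a1 and Col4a2 peak, chr8:11315328-11315454, lay 2519 bp upstream of Col4a1 and had a fold enrichment of 4.19 over the local background as the authors give it, which ranks it 12251 of 12898 peaks. The peak of Col6a2 at chr10:76624990-76625116 had a fold enrichment of 6.59, 1411 and 1637 bp upstream of its 2 starts. Col16a1, a fibril-associated chain, had chr4:130044247-130044463 at 6.28, 3443 bp upstream. Col25a1, at a mean of 0.0999 RPM in muscle, had chr3:130185517-130185679 at 9.95, 4736 bp downstream. The median of all peaks was 7.68, so 3 of the 4 were below it. None of the peaks was within 1 kb of a start, where 2.73% of all genes had one, and none reached a fold enrichment of 10, as 1.89% of all genes had within 5 kb. Col7a1, Col11a2, Col24a1 and Col6a6 had none within 5 kb.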

How the data were processed

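RNA from hind limb muscle was extracted with Trizol and made into libraries with a TruSeq RNA v2 kit, per the labels' protocols. The authors deposited RPM values, and for WT over KO a log2 fold change, its standard error (recorded as a score), p-value and q-value, in 1 table per injury state. The submitters' processing notes name HISAT2 2.1.0, SAMtools, featureCounts, DESeq2, Bowtie 1.1.0 and MACS2 2.1.0.20140616 and the builds mm10 and GRCm38.p5, without a role or order. Strand use and the treatment of shared reads are not given there. The peak caller was MACS2, per the file headers, run on 1 ChIP and 1 control library, and the deposited peak list holds signal at the summit, fold enrichment (a ratio) and −log10 p- and q-values.

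The members, lists and tests were chosen with earlier results of these data known. Values were compared with limma 3.58.1 (lmFit, eBayes with trend, R 4.3.3) on log2(RPM + 1), two-sided, over genes that reached 1 RPM in 3 or more of the fitted libraries, with Benjamini-Hochberg adjustment over all genes tested and a threshold of 0.05. KO and WT were compared within each table (6 libraries), and injury and the interaction over all 12, which joins tables that are each scaled to their own totals. Changes are on the log2(RPM + 1) scale and understate those of low genes. Whole reads were recovered from RPM (100% of testable values whole within 0.1 read) for edgeR 4.0.16 and DESeq2 1.42.0 as alternatives. Other alternatives were 3 scalings, a pseudocount of 0.1, other filters, a replicate block, 1 fit of all 12 libraries, each library left out, and the deposited q-values. Scripts were tested on simulated data. Limits of detection cover counting error only.

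Per-library values are given for the 10 genes of highest mean RPM and the 8 of smallest p in each KO against WT comparison, changes for these and for the 3 of smallest p in each injury comparison and the interaction, and, from other lists, the 2 of smallest p. Col5a2, Col12a1, Col14a1, Col26a1 and Col22a1, and list genes that passed in an alternative, were outside that rule and named after their values were seen. Start regions, with the RefSeq starts used for peak distances, come from the RefSeq table of GRCm38.p6, which matched 35 of 44 genes. Protein sequences and transcript lengths were not used here. Samples sharing an animal number across legs were taken as pairs for the block of the injury comparisons.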

Additional observations from a re-analysis of the deposited data

How the results depend on the processing

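The count of collagen genes that passed in uninjured muscle, 0, was the same under every alternative run except the replicate block, where it was 2, Col7a1 (adjusted p = 0.00481) and Col11a2 (adjusted p = 0.0440), with 6.04% of all genes. The block also gave 1 of 10 collagen receptors (Ddr2, adjusted p = 0.0356) and 3 of 23 binding proteins (Dcn, Tnxb and Fbn1, adjusted p of 0.00869, 0.0424 and 0.0489), all lower in KO. The replicate numbers join different animals, so these libraries were not taken as pairs. They correlated at 0.037, 0.256 and 0.373 in uninjured and -0.452, -0.603 and -0.3 in injured muscle. The 2 legs of an animal number correlated at 0.278, -0.231 and 0.016 in WT and 0.024, 0.504 and 0.628 in KO. They were taken as pairs by number alone. In injured muscle the replicate block gave 0, DESeq2 gave 1 (Col6a6), and leaving out a library gave 0 to 6, the 6 without KO replicate 2. For injury and the interaction the animal block gave 0, as did every other alternative run. By the rule above, 18 genes were given by library in uninjured and 20 in injured muscle. For these, 187 of 195 values in uninjured and 213 of 217 in injured muscle kept their direction and side of the threshold under settings other than leaving out a library. Their directions reversed for Col1a1 in uninjured muscle with scaling outside mitochondrial genes (-0.084), for Col6a2 there with edgeR (0.035), DESeq2 (0.041), upper quartile (0.023) and TMM scaling (0.097) and in the authors' deposited table (0.048), and for Col7a1 in injured muscle with edgeR (0.15), DESeq2 (0.16) and in the authors' deposited table (0.13). The injured KO mean of Col7a1, 84.8 RPM, was above the injured WT mean, 76.7 RPM, with KO replicate 2 the only KO library above either. DESeq2 gave no p-value for Col7a1 there. The cause of the reversals was not tested. With libraries left out in turn, estimates that crossed 0 ran from -0.724 to 0.012 for Col1a2 (without WT replicate 1), -0.33 to 0.52 for Col1a1 (below 0 without WT replicate 2 or KO replicate 3), -0.36 to 0.20 for Col6a2 (above 0 without WT replicate 1 or KO replicate 2) and -0.846 to 0.017 for Col4a3 (without WT replicate 3) in uninjured muscle, and from -0.287 to 0.033 for Col3a1 (without WT replicate 1) and -0.33 to 0.20 for Col1a2 (above 0 without WT replicate 1, KO replicate 1 or KO replicate 3) in injured muscle. Of the other collagen genes, those that reversed in uninjured muscle were Col12a1 (-0.09) with edgeR (0.80), DESeq2 (0.91) and without KO replicate 1 or 2 (0.32 and 0.76), Col16a1 (-0.25) with edgeR and DESeq2 (both 0.008) and without WT replicate 1 or KO replicate 2 (0.12 and 0.43), Col22a1 with scaling outside mitochondrial genes (-0.067), Col14a1 (0.25) and Col5a1 (0.012) without WT replicate 1 and Col8a2 without WT replicate 2 (-0.275), and in injured muscle Col20a1 (-0.51) and Col16a1 (-0.08) without KO replicate 2. Col20a1, Col22a1, Col26a1 and Col27a1 also crossed 0 by less than 0.1 without another injured library. The median change of the collagen genes ran from -0.57 to -0.15 in uninjured and -0.32 to 0.00 in injured muscle, from -0.04 (without uninjured replicate 2) to 0.38 for injury in WT, 0.14 to 0.53 for injury in KO and -0.04 (without injured KO replicate 2 or uninjured WT replicate 1) to 0.52 for the interaction. The count of 5 collagen genes with a peak became 0 with a window of 1 kb and 0 with a fold enrichment of at least 10. Genes at a few RPM rest on few reads in uninjured WT replicate 2, where 3 reads are 1.60 RPM.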

Other observations

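Chains that assemble into one protein can be compared within a library, where the ratio of their RPM does not depend on the library's total. The 7 pairs below were chosen after the values were seen, so they are described without a test. RPM is not scaled to length, so a ratio is not a ratio of transcripts.

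Type I collagen is built from more of the Col1a1 chain than of the Col1a2 chain. The ratio of Col1a2 to Col1a1 was 1.95, 2.29 and 1.92 in uninjured WT and 1.80, 1.42 and 1.25 in uninjured KO libraries. In injured muscle it was 1.83, 1.83 and 2.28 in WT and 1.63, 1.44 and 1.41 in KO libraries. Every KO library was below every WT library in both states, injured KO replicate 2 included. Neither gene passed the test by itself. No share over other gene pairs is given, so the separation of this ratio is a description only.

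For type IV collagen the ratio of Col4a2 to Col4a1 was 0.597, 0.620 and 0.576 in uninjured WT and 0.780, 0.796 and 0.716 in uninjured KO libraries, with no overlap. In injured muscle it was 0.751, 0.702 and 0.715 in WT and 0.742, 0.935 and 0.755 in KO libraries, and these overlapped. The ratio of Col5a2 to Col5a1 was lower in all uninjured KO libraries, 0.654 ± 0.145 against 0.944 ± 0.073 (SD, n = 3), and that of Col6a3 to Col6a1 was lower in all injured KO libraries, 0.579 ± 0.079 against 0.683 ± 0.042. The ratios Col5a3 to Col5a1, Col6a2 to Col6a1 and Col4a4 to Col4a5 overlapped between genotypes in both states.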
